A study of Mus musculus with 9 samples.

Results

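CTCF occupied 342 autosomal peaks at 2-fold or more below control in MommeD43-GFP neural stem cells (NSCs). In Smchd1 del/del NSCs these peaks stayed above the control level less 0.5 log2 units. These peaks were chosen by their pooled values in the 3 genotypes, from the merged autosomal peaks of a CTCF ChIP-seq experiment. The control level had to be at least -1 on the log2 scale of RPM (reads scaled to library size), the MommeD43-GFP value had to be lower than control by at least 1 log2 unit, and the Smchd1 del/del value had to stay above control less 0.5. The 342 members were 0.218% of the 157004 autosomal peaks with a control level of at least -1, which are called eligible here, out of 225769 merged peaks in all. The rule used the values of all 3 genotypes, so the levels and differences of members are given as a description.

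The study mapped CTCF in primary female NSCs grown from the cortices of embryonic day 14.5 C57BL/6 mice and kept for under 10 passages. Control libraries came from 3 lines homozygous for a GFP-tagged Smchd1 allele (Smchd1 GFP/GFP), and point mutant libraries from 3 lines homozygous for that tagged allele with the MommeD43 mutation (Smchd1 MommeD43-GFP/MommeD43-GFP), which was recreated by CRISPR/Cas9 in mice and backcrossed. Null libraries came from 2 lines with Smchd1 deleted in culture (Smchd1 del/del): floxed NSCs were infected with a Cre retrovirus and drug selected, and their allele carried no GFP tag. The table holds 1 value per genotype, the authors' mean over its libraries, and no value for the 1 input library, so no spread between lines can be shown and no difference carries a p-value. The identity of the cells as NSCs cannot be checked from CTCF peaks.

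CTCF is a zinc finger protein that binds a long GC-rich motif and marks insulators, domain borders and the anchors of chromatin loops held by cohesin. SMCHD1 is a non-canonical member of the SMC protein family that takes part in silencing the inactive X chromosome, imprinted clusters and some clustered autosomal genes. MommeD43 lies in the part of SMCHD1 that holds its ATPase, whereas the del/del cells lack the protein. The mutants also differ in the GFP tag, in Cre infection and drug selection and in their lines, which cannot be told apart from the alleles here.

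The sequences under members were of several kinds. A core CTCF motif of 12 bases was present on either strand in 3 members, or 0.877%, against 5.15% of eligible peaks, and these 3 are printed because they hold the full core motif. Capitals mark the motif, and coordinates refer to GRCm38, with sequence from RefSeq.
Gm45844, chr7:7278482-7278541, minus strand: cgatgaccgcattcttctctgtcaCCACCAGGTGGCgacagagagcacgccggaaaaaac
Gm9509, chr15:37172350-37172409, plus strand: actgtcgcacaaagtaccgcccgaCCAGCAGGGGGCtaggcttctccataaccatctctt
near Gm48641, chr12:19791440-19791499, minus strand: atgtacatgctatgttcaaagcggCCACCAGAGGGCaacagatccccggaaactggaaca
A relaxed form of the motif, with the 3 bases after its opening CC free, was present in 30 members, or 8.77%, against 22.4% of eligible peaks. The next set is printed because it includes lowered sites that resemble each other, with the relaxed motif in capitals. Oxr1, Iqgap2 and Ankrd46 were added to it after their values were seen.
Oxr1, chr15:41782103-41782162, minus strand: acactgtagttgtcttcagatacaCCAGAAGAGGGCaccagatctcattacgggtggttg
Dab1, chr4:104363070-104363129, minus strand: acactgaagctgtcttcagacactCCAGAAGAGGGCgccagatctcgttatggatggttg
Iqgap2, chr13:95768203-95768262, plus strand: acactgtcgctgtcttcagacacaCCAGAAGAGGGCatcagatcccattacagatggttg
Ankrd46, chr15:36481627-36481686, minus strand: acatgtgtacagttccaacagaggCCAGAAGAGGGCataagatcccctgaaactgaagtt
Kank1, chr19:25395764-25395823, plus strand: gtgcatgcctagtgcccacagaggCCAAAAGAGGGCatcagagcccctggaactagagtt
5730507C01Rik, chr12:18514200-18514259, plus strand: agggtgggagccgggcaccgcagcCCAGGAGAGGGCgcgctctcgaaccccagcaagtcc
The 60-base windows in Oxr1 and Dab1 shared 52 bases, those in Oxr1 and Iqgap2 shared 53, and those in Dab1 and Iqgap2 shared 51, and the peaks lay on chromosomes 15, 4 and 13. The windows in Ankrd46 and at Kank1 shared 44 bases with each other and 27 to 34 with those 3. The window at 5730507C01Rik shared 20 to 24 bases with any of the 5. Relaxed motif windows in Erich5 and at Asap2, not printed, shared 16 to 26 bases with the printed windows of this set. All windows are aligned on the motif, so part of the shared bases comes from it. Of the 30 members with a relaxed motif, 20 (66.7%) held one inside sequence that RefSeq masks as repeat, against 53.9% of the eligible peaks with such a motif. The member with the lowest difference of all had neither motif. Its central 200 bases are printed with CG pairs in capitals.
near Gm11905, chr4:26555601-26555800, plus strand: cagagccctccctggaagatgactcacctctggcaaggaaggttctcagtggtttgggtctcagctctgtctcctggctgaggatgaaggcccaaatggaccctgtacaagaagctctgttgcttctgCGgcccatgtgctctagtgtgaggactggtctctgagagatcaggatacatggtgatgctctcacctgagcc

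At most members the difference in MommeD43-GFP cells lay close to the limit that the rule set. Its median was -1.13 on the log2 scale, with quartiles of -1.32 and -1.05, and 231 members (67.5%) lay between -1.25 and -1. At the limit itself the intronic Myrip peak lay just inside at -1.00056 and the Elp3 peak just outside at -0.998938. For the null condition, a peak on chromosome 5 with no start within 50 kb lay inside at -0.498585 and the peak near Tmem74 outside at -0.500118. For the control level, the Gm47532 peak lay inside at -0.99478 and the Ptprd peak outside at -1.00061. In Smchd1 del/del cells the median difference of members was -0.25, and 67 members (19.6%) were above control there, against 39.5% of eligible peaks. Over all eligible peaks the medians were -0.05 in MommeD43-GFP and -0.10 in the null.

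Members were weak peaks. Their median level was -0.65 (control), -1.82 (MommeD43-GFP) and -0.87 (Smchd1 del/del), in log2 RPM. The steps between the lowest values gave library sizes with geometric means of 41.7, 49.2 and 49.98 M reads. At these depths a member at the median rested on 26.6 reads per control library, 14.0 per MommeD43-GFP library and 27.4 per Smchd1 del/del library. The counting error of a member's difference between MommeD43-GFP and control had a median of 0.28 on the log2 scale, which is more than the distance of those 231 members from the limit. This error covers the counting of reads only. Of all eligible peaks, 0.534% had a difference of -1 or less in MommeD43-GFP, 0.151% a difference of 1 or more, and 1.64% a difference of -1 or less in Smchd1 del/del cells. Of the 838 peaks lowered by that measure in MommeD43-GFP, 342 (40.8%) were members, 320 (38.2%) had null differences above -1 up to -0.5, and 176 (21.0%) were at -1 or below in both mutants.

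A smaller group lay far below the limit. A difference of -1.5 or less in MommeD43-GFP was found at 61 members, and at 0.0605% of eligible peaks. Among these 61 the median difference was -1.93 in MommeD43-GFP and -0.04 in the null, and 29 were above control in the null. The 10 lowest had MommeD43-GFP levels between -5.77 and -3.90, while their control levels lay between -0.93 and 0.07 and their null levels between -0.60 and 0.95.

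**Figure D1:**
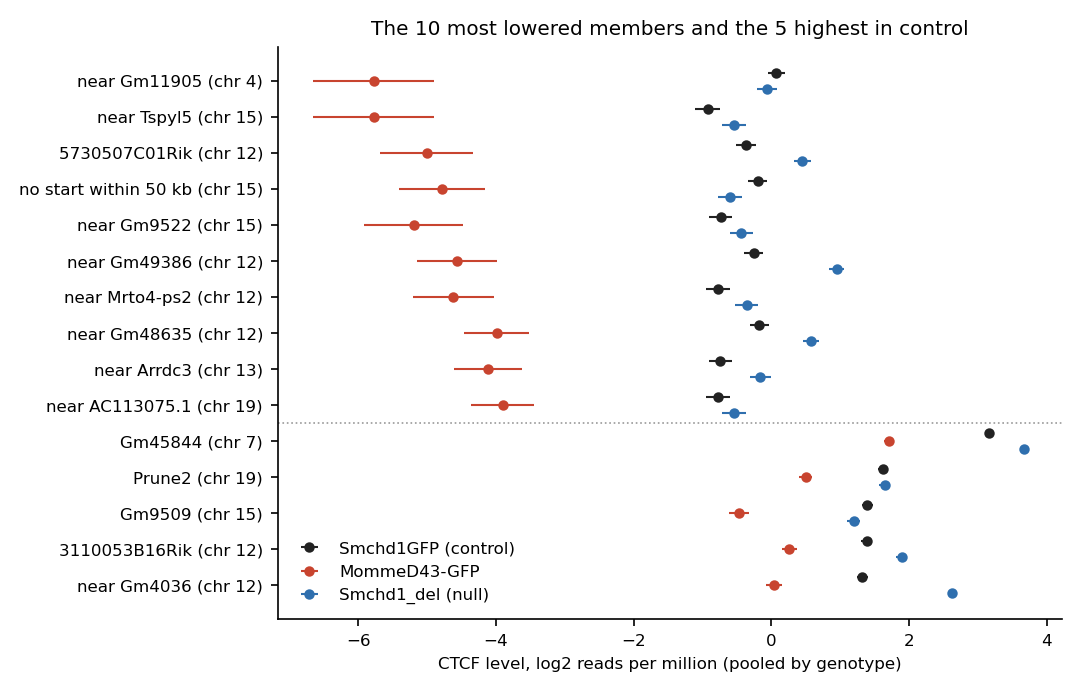
CTCF level in log2 RPM (x axis) at the 10 members with the lowest difference (above the dotted line) and the 5 with the highest control level (below it). Points are the authors' pooled values of the 3 genotypes and bars are 1 counting error; the rule places the MommeD43-GFP points left of both others, and they lie between -5.77 and -3.90 in the upper group and between -0.47 and 1.71 in the lower group.

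The lowest member was a 900-bp intergenic peak at chr4:26555251-26556150, 38017 bp from the start of the processed pseudogene Gm11905. Its level was 0.07 (control), -5.77 (MommeD43-GFP) and -0.07 (Smchd1 del/del). Decoded into reads, the 3 control libraries held about 132 (3 times their geometric mean) and the 3 MommeD43-GFP libraries none, which with a floor of 3 reads over the group makes it at least 51.8-fold lower. A 600-bp peak 16217 bp from Tspyl5 on chromosome 15 had levels of -0.93, -5.77 and -0.54 in the same order. It held about 66 control reads and no MommeD43-GFP reads, and was at least 25.9-fold lower. A peak 7111 bp from Gm9522 on chromosome 15 had levels of -0.73, -5.19 and -0.44, of which the first pair are 22.04-fold apart. With reads summed over libraries in place of the mean of logs, about 75 control reads stood against 3, a ratio of 29.5 (95% interval 9.72 to 146, counting only). At these 3 peaks the MommeD43-GFP libraries held between 0 and 3 reads in all, and the null differed from control by -0.14, 0.38 and 0.30.

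Of the other 7 lowest members, 4 lay on the proximal part of chromosome 12. The promoter of 5730507C01Rik (chr12:18513751-18515700) had levels of -0.37 (control), -5.004 (MommeD43-GFP) and 0.45 (Smchd1 del/del), a difference of -4.64 ± 0.69 (counting error). The peak near Gm49386 had levels of -0.26, -4.56 and 0.95. Levels near Gm48635 were -0.17, -3.98 and 0.58, and those near Mrto4-ps2 were -0.77, -4.62 and -0.36. The null level was above control at all 4 of these peaks, by 0.41 to 1.21. The remaining 3 were a chromosome 15 peak with no start within 50 kb (-0.19, -4.79 and -0.60), a peak near Arrdc3, which encodes an arrestin-domain protein, on chromosome 13 (-0.74, -4.12 and -0.16) and a peak near AC113075.1 on chromosome 19 (-0.77, -3.90 and -0.54).

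The 5 members with the highest control level showed differences nearer to the limit with small counting errors. The peak at the promoter of Gm45844 (chr7:7277401-7278900), which holds a core motif, had a level of 3.17 (control), 1.71 (MommeD43-GFP) and 3.66 (Smchd1 del/del). Its difference of -1.46 ± 0.08 rested on 374 reads per control library and 161 per MommeD43-GFP library. An intronic peak of Prune2 had levels of 1.63, 0.50 and 1.65, so that null and control differed by 0.02 there. The core motif peak at Gm9509 had 1.39, -0.47 and 1.196, a difference of -1.86 ± 0.16. The peak at the start of 3110053B16Rik had 1.39, 0.26 and 1.89, and the peak near Gm4036 had 1.32, 0.04 and 2.63. Of these 5, the Gm9509 peak alone was lower in the null than in control.

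The null level exceeded control by most at 5 members, of which 4 lay on chromosome 12 and 1 on chromosome 15. The core motif peak near Gm48641 had levels of -0.99 (control), -3.85 (MommeD43-GFP) and 0.51 (Smchd1 del/del), which is 1.502 above control in the null and 2.85 below it in the point mutant. The null differences were 1.31 near Gm4036, 1.21 at the promoter of Asap2, which encodes an Arf GTPase-activating protein, 1.21 near Gm49386 and 1.14 in an intron of Erich5. These 5 were picked for a high null value. In 4 of them, all but the Erich5 peak, over 50% of the 32-base words occur more than once in the genome (54.5% to 82.8%), and the part of this in their values was not tested.

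Members were unevenly spread over chromosomes. Chromosome 15 held 49 members, or 0.758% of its 6462 eligible peaks (95% Wilson interval 0.574 to 1.001), and chromosome 12 held 53, or 0.695% of 7625 (0.532 to 0.908). Chromosome 13 followed with 32 members (0.392%) and chromosome 19 with 15 (0.360%). The lowest share was on chromosome 11, with 4 of 9447 (0.0423%, interval 0.0165 to 0.109), and on the other 14 chromosomes the share ran from 0.0878% to 0.237%. Chromosomes 12 and 15 together held 102 members (29.8%) and 8.97% of eligible peaks. These intervals treat peaks as independent, which neighbours are not.

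The share on these chromosomes went with the size of the difference. Of the 61 members at -1.5 or less, 40 (65.6%) lay on chromosomes 12 and 15 and 12 on chromosomes 13 and 19. By bands of the difference, the share on chromosomes 12 and 15 was 8 of 11 at -3 or less, 11 of 18 between -3 and -2, 21 of 32 between -2 and -1.5, 13 of 50 between -1.5 and -1.25 and 49 of 231 above that. Peaks outside the rule that were at -1.5 or less in MommeD43-GFP had 13 of 34 (38.2%) on these chromosomes. Eligible peaks at -1.5 or less in Smchd1 del/del cells had 11.1% there. Sets cut at 1 log2 unit are to be read beside all members, which had 29.8%. At that cut the share was 14.3% in peaks outside the rule at -1 or less in MommeD43-GFP. It was 10.1% in eligible peaks at 1 or more in MommeD43-GFP, 13.1% in peaks lowered in both mutants and 10.3% in those lowered in the null only. Chromosomes 12 and 15 were singled out after their counts were seen, and no test was made.

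**Figure D2:**
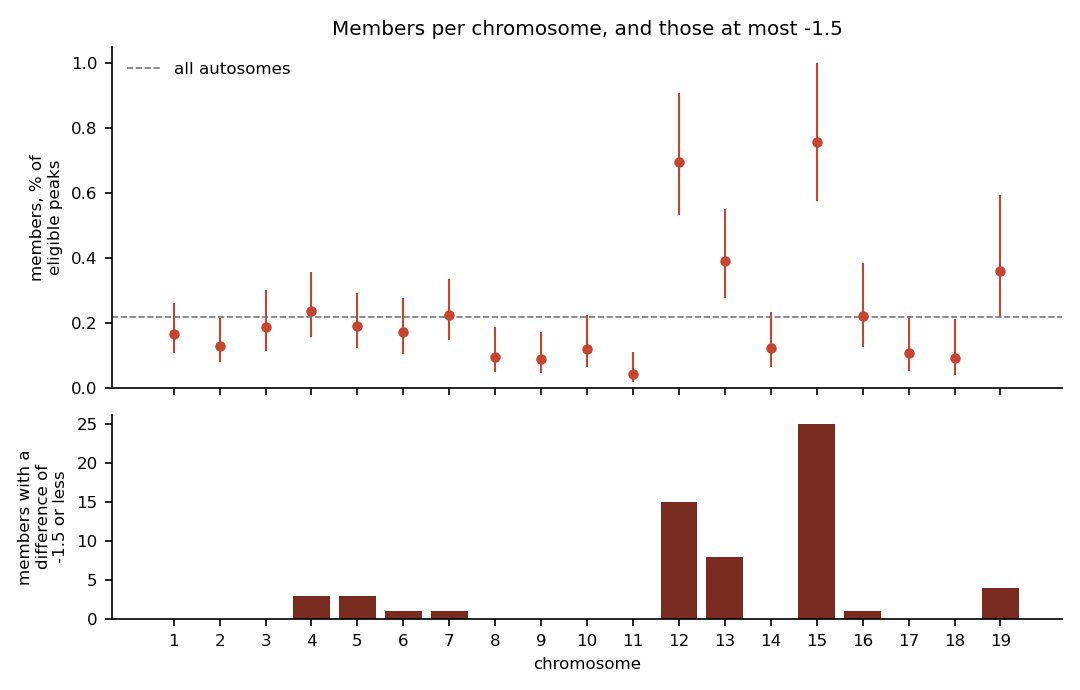
Upper panel, members as a percentage of eligible peaks on each autosome, with 95% Wilson intervals; the dashed line is the share over all autosomes (0.218%). Lower panel, the number of members with a difference of -1.5 or less; chromosome 15 holds 25 and chromosome 12 holds 15 of the 61.

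Members also gathered in stretches. Of 256 windows of 10 Mb with an eligible peak, 100 held no member, 123 held 1 or 2, 28 held 3 to 5 and 5 held more. Those 5 windows held 79 members (23.1%) and 1.96% of eligible peaks. The window at 30 to 40 Mb of chromosome 15 held 28 members among 697 eligible peaks (4.02%). In that window 38 peaks, the 28 members among them, were at -1 or less in MommeD43-GFP and 5 at 1 or more. In Smchd1 del/del cells the counts were 14 and 6. The rule puts every member at -1 or less in MommeD43-GFP and above -1 in the null. It thus sets part of the gap between such counts, here and in the other windows, and no conclusion is drawn from the gap. The window at 20 to 30 Mb of chromosome 12 held 22 members among 794 (2.77%), with 27 peaks at -1 or less and 1 at 1 or more in MommeD43-GFP, and 19 and 8 in the null. The windows at 10 to 20 Mb of chromosome 12 (14 members of 549), 40 to 50 Mb of chromosome 15 (8 of 267, with 17 peaks at -1 or less in MommeD43-GFP and 14 in the null) and 20 to 30 Mb of chromosome 19 (7 of 768) completed the 5.

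Other peaks in the same windows carry the same measure, but the rule also shaped which peaks were left. Any other eligible peak at -1 or less in MommeD43-GFP had a null difference of -0.5 or less, or it would be a member. This lowers the null values of other peaks here, in runs and near members. The windows were picked for their number of members. In the chromosome 15 window at 30 to 40 Mb, the other eligible peaks had a median difference of -0.16 in MommeD43-GFP and -0.07 in the null, against -0.05 and -0.10 over all eligible peaks. Of these 669 other peaks, 19.9% were at -0.5 or less in MommeD43-GFP and 16.1% in the null, against 8.68% and 15.0% of all eligible peaks outside the rule. At 40 to 50 Mb of chromosome 15 the other peaks had medians of -0.23 and -0.21, and 23.6% and 28.2% were at -0.5 or less. On chromosome 12 the medians were -0.13 and -0.13 at 20 to 30 Mb, and -0.07 and -0.12 at 10 to 20 Mb. At 20 to 30 Mb of chromosome 19 they were -0.07 and -0.07. In the same order, 14.2%, 12.3% and 11.96% of the other peaks were at -0.5 or less in MommeD43-GFP, each above 8.68%. In the null these shares were 16.3%, 21.1% and 14.3%, against 15.0%. Members in these windows stood among neighbours most of which lay within 1 log2 unit of control. The same is true of eligible peaks in general, of which 0.534% were at -1 or less and 0.151% at 1 or more in MommeD43-GFP.

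**Figure D3:**
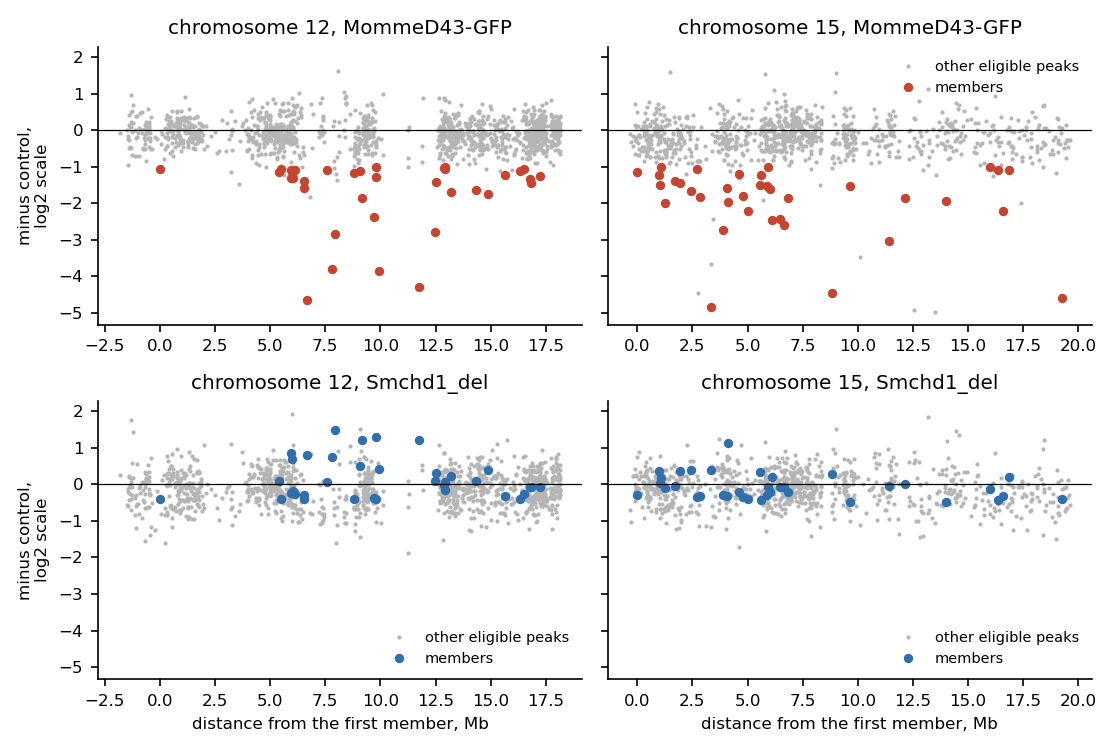
Difference from control on the log2 scale (y axis) of eligible peaks in 20 Mb of chromosome 12 (left) and of chromosome 15 (right), against distance from the first member in Mb. Upper panels show MommeD43-GFP and lower panels Smchd1_del. Coloured points are members and grey points other eligible peaks. The rule itself places members low in the upper panels and above its null limit in the lower ones. The lowest members, at -4.64 and -4.85 in the upper panels, are at 0.81 and 0.38 in the lower ones. Of all members on chromosomes 12 and 15, 33.3% are above control in the null.

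Runs of at least 3 members with gaps of at most 500 kb numbered 12 and held 66 members (19.3%), with 6 runs on chromosome 12, 4 on chromosome 15 and 1 each on chromosomes 19 and 5. The run with the most members lay on chromosome 12 and held 10, with the 5730507C01Rik promoter lowest. On chromosome 15 a run of 9 members spanned 1860.9 kb, with the promoter of Fam173b, which encodes a mitochondrial lysine methyltransferase, lowest at -2.01 ± 0.21. Its 107 other eligible peaks had a median difference of -0.27 in MommeD43-GFP and -0.22 in the null, with 35 at -0.5 or less and 3 at 0.5 or more in MommeD43-GFP. A second run of 9 on that chromosome was lowest in an intron of Gm26766 (-2.60), and a run of 6 was lowest near Laptm4b, a lysosomal membrane protein gene (-2.73). Over the 12 runs the median difference of the other peaks was -0.40 to -0.04 in MommeD43-GFP and -0.56 to -0.06 in the null, and the null median was the lower one in 7 runs.

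The remaining runs were shorter. On chromosome 12, runs of 3, 3 and 4 members were lowest near Gm48635 (-3.81), at the Asap2 promoter (-1.86) and near Mrto4-ps2 (-3.85). In each of these runs, 3 members had 50% or more of their 32-base words occurring more than once in the genome. Their 4, 32 and 10 other eligible peaks had medians of -0.36, -0.37 and -0.40 in MommeD43-GFP. In the null these were -0.56, -0.40 and -0.35. Near Gm4120 on chromosome 12, 6 members spanned 705 kb, with a lowest difference of -2.78. A run of 5 was lowest at a UTR of Adi1, an enzyme of methionine salvage (-1.45 ± 0.28), and a run of 4 near Gm38541 on chromosome 15 was lowest at -2.23. Off these chromosomes, 4 members near Kank1 on chromosome 19 had Kank1 lowest at -2.16, and 3 members in and near Mtus2, a microtubule-associated protein gene on chromosome 5, were lowest at -2.45.

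Distance from a member was related to how its neighbours measured in MommeD43-GFP and in the null. Of the 76 other eligible peaks within 10 kb of a member at -1.5 or less, 27.6% were at -0.5 or less in MommeD43-GFP and 2.63% at 0.5 or more, with a median of -0.24. The share at -0.5 or less was 18.7% at 10 to 50 kb, 14.5% at 50 to 200 kb, 12.6% at 200 to 1000 kb and 8.52% further away. In Smchd1 del/del cells the same shares were 27.6%, 18.97%, 16.9%, 17.2% and 14.9%. Around the 281 shallower members the share in MommeD43-GFP was 14.1% within 10 kb and 8.41% beyond 1000 kb. The null shares there were 18.9% and 14.8%.

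**Figure D4:**
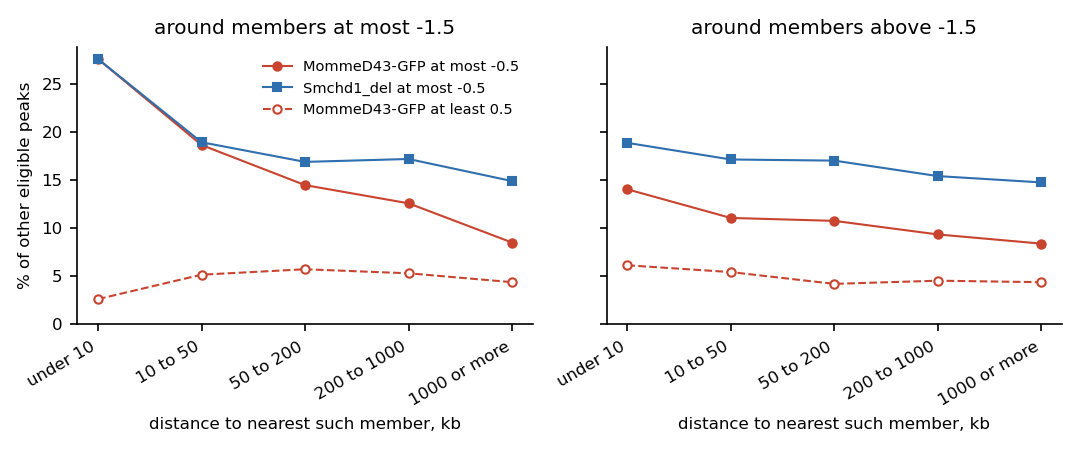
Percentage of other eligible peaks (y axis) at or below -0.5 in MommeD43-GFP (filled circles), at or below -0.5 in Smchd1_del (squares) and at or above 0.5 in MommeD43-GFP (open circles), by distance in kb to the nearest member at -1.5 or less (left) or above -1.5 (right). On the left the MommeD43-GFP share below -0.5 runs from 27.6% within 10 kb to 8.52% beyond 1000 kb.

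By location, 157 members (45.9%) were intergenic, against 37.3% of eligible peaks. A further 146 (42.7%) lay in gene bodies against 47.2%, and 39 (11.4%) within 1 kb of a transcription start against 15.5%. Within gene bodies 126 members (36.8%) were intronic, 12 (3.51%) exonic and 8 (2.34%) in a UTR, against 34.7%, 7.75% and 4.72% of eligible peaks. Promoters of protein-coding genes held 18 members (5.26%) against 10.6% of eligible peaks, and 71 members (20.8%) had no start within 50 kb against 13.5%. Weak peaks were less often at promoters in both sets. Among peaks with control levels from -1 to -0.5, 7.59% of members and 7.95% of eligible peaks were at promoters, and 50% against 44.0% were intergenic. In each higher bin members were more often at promoters than eligible peaks. The shares were 15.8% against 10.2%, 14.3% against 13.5%, 30.8% against 17.2% and 37.5% against 31.3%. These bins held 76, 21, 13 and 8 members. Of the 61 members at -1.5 or less, 12 (19.7%) were at promoters.

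The promoters of protein-coding genes with the lowest differences included several whose null level exceeded control. Kank1, which encodes an ankyrin-repeat regulator of the actin cytoskeleton, had levels of 0.66, -1.51 and 0.73 at its promoter (chr19:25395451-25396200), a difference of -2.16 ± 0.23. Fam173b had 0.80, -1.21 and 0.70, so that its null was below control, with a difference of -0.10. Asap2 had 0.44, -1.42 and 1.66. The promoter of Cox6c, a subunit of cytochrome c oxidase, had -0.06, -1.56 and 0.29. The differences were -1.62 at Dyrk4, a protein kinase gene, -1.31 at Ift80, an intraflagellar transport gene, -1.19 at Sgms1, a sphingomyelin synthase gene, and -1.13 at Focad. At those 4 promoters the null was below control by 0.18 to 0.45.

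In all, 194 annotated genes, of which 141 were protein-coding, held a member in the body or at a promoter. No gene held 3, and 4 held 2: Dab1, Mtus2, Rbfox1 and Stk3. Stk3, a kinase of the Hippo pathway on chromosome 15, had 2 members among 15 eligible peaks, at -1.80 and -1.202. Rbfox1, a neuronal splicing regulator, had 2 among 83, at -1.63 and -1.28. Each of the 4 was thus represented by a small part of its CTCF peaks.

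Dab1, the cytoplasmic adaptor of the reelin receptors, had a member in an intron at chr4:104362651-104363850, 3263 bp from a start. The 3 levels there were 0.82 (control), -1.79 (MommeD43-GFP) and 1.36 (Smchd1 del/del), a difference of -2.61 ± 0.24. The other Dab1 member, also intronic, had -0.48, -1.82 and -0.94. An intron of Reln, the secreted ligand of the pathway that positions migrating cortical neurons, held a member with -0.69, -2.08 and -0.94. Reelin pathway genes together held 3 members among 299 eligible peaks (1.003%, against 0.218% of all eligible peaks), of which 2 were in Dab1, and the median difference of all 299 was -0.08 in MommeD43-GFP and -0.11 in the null. Axon guidance genes held 1 among 609, in an intron of the semaphorin gene Sema5a (-0.65, -2.10 and -0.28).

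The other gene lists held no member. These were Hox genes (39 eligible peaks), clustered protocadherins (75), imprinted genes (235), olfactory and vomeronasal receptors (504), keratins (74), Notch pathway genes (174), neural stem cell genes (503), markers of neurons (120), astrocytes (40), oligodendrocytes (25), microglia (31) and endothelial cells (49), and CTCF and cohesin genes (61). At a background of 0.218%, lists of this size would hold few members or none, so these zeros say little about the lists. The Hox and protocadherin medians were -0.05 and 0.05 in MommeD43-GFP and 0.10 and 0.04 in the null.

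Members were short. Their median length was 600 bp (quartiles 450 and 750) against 900 bp (750 and 1650) for eligible peaks, and they ranged from 300 to 2400 bp while eligible peaks reached 60300 bp. The deposited values are not divided by length, and length went with level. In the lowest control bin, from -1 to -0.5, which held 65.5% of members and 28.6% of eligible peaks, the median was 600 bp in both. In higher bins members were shorter than eligible peaks, with medians of 750 against 900 bp, 900 against 1200 bp, 1200 against 1500 bp and 1575 against 2700 bp. Members at -1.5 or less had a median of 750 bp.

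Motif shares also followed level. In the lowest control bin the relaxed motif was in 2.23% of members and 5.77% of eligible peaks, and the core motif in 0.446% and 0.501%. From -0.5 to 0 the relaxed motif was in 14.5% of 76 members against 10.3%, and at a level of 1 and above in 6 of 8 members against 55.8%. Among members at -1.5 or less, 14 of 61 (23.0%) had a relaxed motif, against 16 of 281 (5.69%) of the others. Of those 14, 10 had it inside masked repeat. GC content differed little, with medians of 47.6% in members and 48.1% in eligible peaks.

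Repeated sequence was more common under members. The median share of a peak masked as repeat was 24% against 16.4% for eligible peaks, and 104 members (30.4%) were masked over 50% or more of their length against 11.7%. A stricter measure counted peaks in which 50% or more of the 32-base words occur more than once in the genome, where reads of 75 bases may map to several places. This held for 50 members (14.6%) and 2.295% of eligible peaks, and for 18.8% of peaks lowered in both mutants and 8.87% of those lowered in the null only. In the lowest control bin the shares were 15.6% of members and 4.53% of eligible peaks. Among members at -1.5 or less it was 18 of 61 (29.5%), with 15 of the 29 at -2 or less.

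The stretches differed in this respect. In the chromosome 15 window at 30 to 40 Mb, 1 of 28 members had mostly repeated words, whereas it was 9 of 22 at 20 to 30 Mb and 6 of 14 at 10 to 20 Mb of chromosome 12, and 4 of 8 at 40 to 50 Mb of chromosome 15. Without peaks of mostly repeated words, 292 members were left. How repeated sequence and the mapping of reads bear on these values was not tested.

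**Figure D5:**
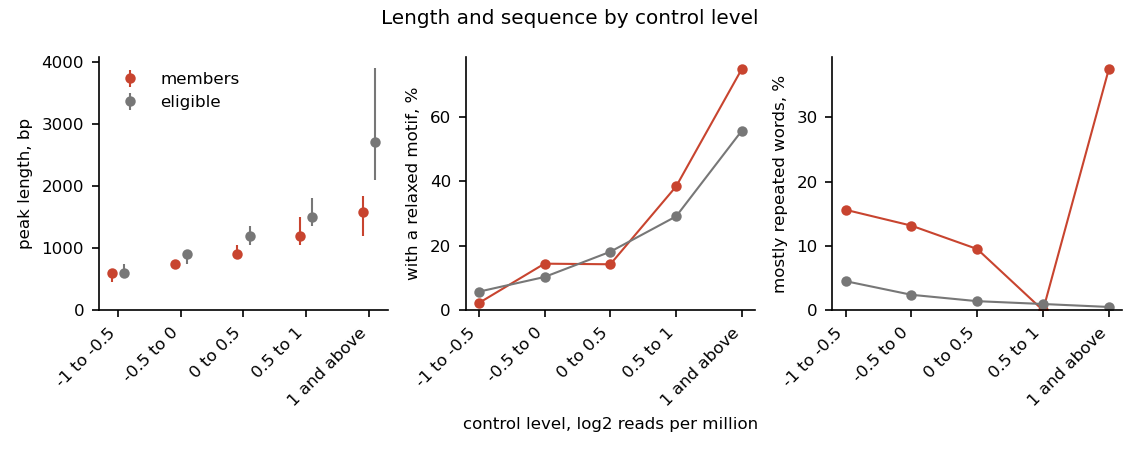
Members (red) and eligible peaks (grey) by control level in log2 RPM (x axis): length in bp as the median with quartiles (left), percentage with a relaxed motif (middle) and percentage in which most 32-base words occur more than once (right). Length and motif shares of both sets go up with level, and the 2 highest bins hold 13 and 8 members.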

How the data were processed

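CTCF ChIP-seq libraries of 75-base single reads were made by the authors with the antibody D31H2. Per the labels and the submitters' processing notes, Trim Galore 0.4.4, cutadapt 2.9, FastQC 0.11.8, Bowtie2 2.3.4.1, SAMtools 1.7 and R 4.2.0 were used on GRCm38. The study's methods state that peaks were called with SeqMonk on the replicate set of a genotype and then merged. The deposited log2 values are RPM, reads scaled to library size, over merged peaks, pooled by the authors over the libraries of a genotype and not divided by peak length. Duplicate removal is not given in the sources used here. Replicate libraries have no values of their own in the table used, so differences carry no test, and the fold of 2 in the rule rests on pooled values.

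The members, gene lists and measures were chosen with earlier results of these data known. Reads were decoded from the steps between the lowest values, in which 0 reads stand as 0.9. All of the 200 lowest values per genotype came out whole (tolerance 0.01). A run on simulated data held a peak with 0 reads in every library by design. It could therefore not test whether the lowest real value is such a peak. Shares have 95% Wilson intervals. Promoters lie within 1 kb of a GENCODE M21 start, then gene bodies, then intergenic. The core and relaxed CTCF motifs were searched on both strands of RefSeq GRCm38.p6, whose lower-case letters gave repeat shares. Repeated words are 32-base words, taken every 16 bases, that occur more than once on either strand. Named peaks are the 10 lowest differences, the 5 highest control levels, the 5 highest null differences, the 10 lowest coding promoters, the lowest of each run, members in listed genes, core motif members and 3 peaks on each side of a limit; others are marked as chosen later. Alternatives covered scaling, thresholds, floors, pseudocounts, promoter width, annotation and runs. Computation was in Python 3.11.15 with scipy 1.17.1 and pandas 2.3.3, numpy 2.4.6, matplotlib 3.10.9 and statsmodels 0.14.6.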

Additional observations from a re-analysis of the deposited data

How the results depend on the processing

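No paired analysis was possible because the table gives 1 pooled value per genotype, and leaving out single libraries could not be run for the same reason. The number of members was 545 after quantile normalization, of which 338 were among the 342, 346 after median centring (308 shared), 477 after a loess trend on level and 353 after centring within 20 bins of GC content (263 shared). It was 4468 with a limit of 1.5-fold and 61 with a limit of -1.5 for the point mutant; 67, 172 and 510 with limits of 0, -0.25 and -0.75 for the null; 42, 661 and 690 with a control floor of 0, of -2 or none; and 136 and 4 with pseudocounts of 0.1 and 1. Promoters held 17.0% with a window of 2.5 kb and 5.26% with protein-coding genes alone (10.6% of eligible peaks). With a control floor of 0 they held 23.8%, against 22.7% of the peaks eligible with that floor. With protein-coding genes alone, gene bodies held 36.8% and intergenic peaks 57.9%. No eligible share is given for these values or for the 2.5 kb window, so they are not set against a background. With a control floor of 0 intergenic peaks were 38.1%, against 31.8% of eligible peaks. Chromosomes 12 and 15 held 65.6% at the limit of -1.5, 24.4% after quantile normalization and 47.6% with a control floor of 0. Of eligible peaks under these settings, 8.97%, 8.97% and 8.88% lay there. Runs numbered 5 and 7 with gaps of 100 and 1000 kb, and 6 with at least 5 members. The median length was 750 bp at the limit of -1.5 and 1050 bp with a control floor of 0, against 900 and 1650 bp in eligible peaks. A motif was in 8.77% with the relaxed form, against 22.4% of eligible peaks. At a control floor of 0 the core form was in 4.76%, against 10.0%, and median GC was 48.4%, against 48.5%. Of 40 recomputed differences of the 10 lowest members, 16 moved by more than their counting error and none turned sign (-6.95 to -2.87). The repeated-word filter (292 members) and the removal of chromosomes 12 and 15 (240) were chosen after seeing the data. Few reads per peak limit precision: 231 members lie closer to the limit than the median counting error of 0.28.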

Other observations

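The rule was limited to autosomes. On the X chromosome 16 of 5335 peaks with a control level of at least -1 met its other conditions, or 0.2999% (95% Wilson interval 0.185 to 0.487), against 0.218% on autosomes. Their median difference in MommeD43-GFP was -1.13, as for the autosomal members, and their lowest was -1.34. No X-linked peak was thus at -1.5 or less under the rule, against 61 of the 342 autosomal members (17.8%). Off chromosomes 12 and 15 that share was 8.75%. With 16 X-linked peaks, the lack of one at -1.5 or less says little.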
